A study of Mus musculus with 59 samples.

Results

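The cortex of mice with an expanded *Atxn1* allele that also carries changes made to break the ATXN1-CIC interaction was compared with that of WT mice in 8 RNA-seq libraries, 4 labelled 154Q-AXH cortex and 4 labelled WT cortex, of the 59 libraries in the series. The members were chosen by the genotype and region that the sample labels give. Each library is the cortex of 1 mouse, and the 12 mice of the series were also sampled in cerebellum, hippocampus, and striatum, and 11 of them in brainstem. All were C57BL/6 mice by the labels (backcrossed to C57BL/6J, per the study's methods) aged 10 weeks. The 154Q-AXH mice are Atxn1_154Q[V591A;S602D]/2Q: 1 allele carries an expanded CAG repeat (154Q) together with the amino acid changes V591A and S602D, and the other is the unmodified 2Q mouse allele. Atxn1_154Q/2Q mice, called 154Q here, carry the same expansion without the 2 changes, and the WT mice carry neither. Both mutant genotypes are knockins, so the changed protein is made wherever the endogenous gene is active. V591A and S602D follow the human numbering. They were introduced into the 154Q allele by CRISPR/Cas9 editing, and the founder line of the mice sequenced is not given in the sources used here.

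ATXN1 is the protein whose polyglutamine expansion causes spinocerebellar ataxia type 1. It binds CIC, a transcriptional repressor that holds down genes of receptor tyrosine kinase and MAPK signaling, through its AXH domain, and the V591A and S602D changes lie in that domain. ATXN1 is made throughout the brain, also by cortical neurons, and it is found in the nucleus with other DNA-binding proteins such as RFX1. The question set by the comparison was which cortical transcripts differ from WT when the expanded protein is present but uncoupled from CIC.

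The 8 libraries held from 34530406 to 46174761 counted read pairs, which was 79.7% to 80.9% of the pairs in each library, and in each from 25613 to 26700 genes had a count. Of these libraries, 2 were checked further. The file of the library labelled 154Q-AXH-207 is named for the mouse 154Q-76 and the reverse, *Xist* is low and *Ddx3y* high in both, which cannot tell them apart, and the labels were followed. In the library labelled WT-221, *Xist* stood at 462 CPM (read counts scaled to the library total) and *Ddx3y* at 0.881, whereas in the other 4 libraries of that mouse number *Xist* was at most 5.64 and *Ddx3y* at least 68.8, so this library goes against its label. Counts that lead a paragraph are therefore also given without WT-221, without 154Q-AXH-207, and, for all but the regional differences, without both. *Xist* was also high in the cortex libraries 154Q-AXH-217 (425 CPM) and 154Q-75 (455 CPM). Fits without WT-221 thus hold such a library in the mutant groups only. *Cux2*, *Fezf2*, and *Tbr1*, markers of excitatory cortical neurons, passed the filter on low counts, which does not require a count in every library. The summed level of the cerebellar neuron markers was 73.5 to 136 CPM in WT and 63.9 to 77.99 CPM in 154Q-AXH cortex. That sum was at least 7384 CPM in the cerebellar libraries of both genotypes. Choroid plexus RNA varied between libraries (376 to 1708 CPM over 12 markers in WT and 314 to 1443 CPM in 154Q-AXH), and the groups overlapped.

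The 154Q-AXH cortex differed from WT in many transcripts, and more of them were lower than higher. Of 18610 genes tested with edgeR's quasi-likelihood test, 1330 (7.15%) had an adjusted p under 0.05, the threshold used throughout: 444 (2.39%) were higher and 886 (4.76%) were lower in 154Q-AXH mice. Most of the differences were small, with a median absolute log2 fold change of 0.385 over the genes called beside a median signed change of 0.002 over all genes tested. The larger ones fell mainly on one side: 134 called genes were lower and 26 higher by over 1 on the log2 scale. In 1245 of the 1330 called genes the 4 libraries of one genotype did not overlap the 4 of the other in CPM, which was so for 2879 (15.5%) of all genes tested. Without WT-221, 868 genes were called, of which 839 were among the 1330, and without 154Q-AXH-207, 826 were called, of which 794 were among them. Without both, 504 remained (115 higher and 389 lower), 497 of them among the 1330, and each of the 1330 genes kept its direction in all 3 fits. These fits reuse the libraries that gave the calls, and most called genes had groups apart. A kept direction was thus nearly fixed in advance. These libraries are whole tissue, where fewer cells of a type and less RNA per cell cannot be told apart.

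**Figure D1:**
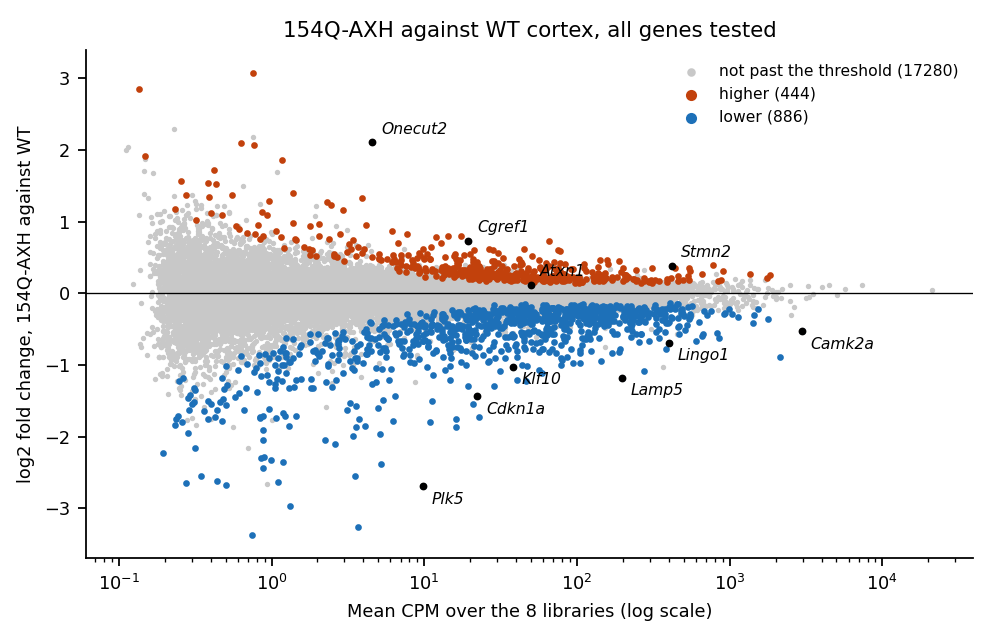
Mean level of each tested gene over the 8 cortical libraries (x axis, CPM, log scale) against its log2 fold change in 154Q-AXH against WT cortex (y axis), with 444 higher genes in orange, 886 lower genes in blue, and the other genes in gray. The genes past a change of 1 on the log2 scale lie mostly below the line, 134 against 26.

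The edited gene itself and the factors that bind its protein did not pass the test. *Atxn1* (GRCm38 chromosome 13, 45549755 to 45965008) held 44.3, 47.2, 51.1, and 48.2 CPM in WT cortex and 49.8, 50.4, 55.7, and 51.95 CPM in 154Q-AXH cortex. These and all values below follow the mouse numbers, from WT-70 to WT-221 and from 154Q-AXH-207 to 154Q-AXH-218. The groups overlapped, and the log2 fold change was 0.12 ± 0.06 (SE, adjusted p = 0.297). Counts per gene add both alleles and do not read the edited codons, so they cannot check the genotype. *Cic*, which encodes the repressor, held 187, 166, 171, and 179 CPM in WT and 179, 179, 182, and 187 CPM in 154Q-AXH cortex (log2 fold change 0.05 ± 0.06 (SE), adjusted p = 0.683), and these ranges overlapped. *Atxn1l*, the paralog of *Atxn1*, whose protein also binds CIC, was at 0.12 ± 0.05 (adjusted p = 0.2). For the other ATXN1-binding factors, log2 fold changes were -0.12 ± 0.12 for *Rfx1* (adjusted p = 0.606), -0.00093 ± 0.10 for *Zbtb5* (adjusted p = 0.997), and 0.11 ± 0.06 for *Zkscan1* (adjusted p = 0.311). Over a list of 18 genes for ATXN1, its paralog, and partners, 17 were tested, edgeR and DESeq2 each called 0, and 1 had an unadjusted p under 0.05. The list's median log2 fold change was 0.02. Within 10 Mb of *Atxn1* on chromosome 13, 156 genes were tested and 18 (11.5%, beside 7.15% over all genes) were called. *Nrn1*, described below, is among them. An effect of sequence linked to the edited allele was not tested.

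The 10 lowered and 10 raised genes with the smallest p values, 20 in all, among called genes with a gene name, a mean of at least 1 CPM, and groups that do not overlap, are described next. That the groups of these 20 genes lie apart was set by this choice. *Lingo1*, a membrane protein that restrains axon growth and myelination, held 516, 478, 490.3, and 485 CPM in WT and 309.6, 299, 307, and 308 CPM in 154Q-AXH cortex. The spread inside each group was small (log2 fold change -0.69 ± 0.05 (SE), adjusted p = 2.03e-06). *Plk5*, a member of the polo-like kinase family expressed in neurons, had 23.6, 16.03, 12.6, and 16.02 CPM in WT against 2.41, 2.31, 2.26, and 3.46 CPM in 154Q-AXH, 6.47-fold lower (log2 fold change -2.69 ± 0.19 (SE), adjusted p = 2.03e-06). The spread over WT libraries was wide for this gene.

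*Klf10*, a TGFβ-inducible transcription factor, fell from 49.97, 48.8, 51.6, and 54.4 CPM in WT to 24.2, 24.6, 28.1, and 23.96 CPM in 154Q-AXH mice (log2 fold change -1.02 ± 0.07 (SE), adjusted p = 2.03e-06). *Ddit4l*, an inhibitor of mTOR signaling, was at 28.4, 23.6, 29.8, and 28.2 CPM and 11.4, 12, 11.2, and 10.4 CPM, respectively (log2 fold change -1.29 ± 0.09 (SE), adjusted p = 2.03e-06). *Cdkn1a*, which encodes the cell cycle inhibitor p21, was at 29.5, 30.8, 36.1, and 33.3 CPM in WT and 14.1, 11.5, 10.1, and 12.2 CPM in 154Q-AXH cortex (log2 fold change -1.44 ± 0.12 (SE), adjusted p = 6.27e-06). The other lowered genes of this set were *Lzts3*, a postsynaptic density protein (log2 fold change -0.67), *Igfn1* (-1.73), *Ankrd33b* (-0.79), the metalloprotease *Adam33* (-2.39), and the lipoxygenase *Alox12b* (-2.55), with adjusted p values from 2.03e-06 to 9.87e-06. *Adam33* and *Alox12b* were under 2 CPM in all 4 154Q-AXH libraries.

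Among the 10 raised genes, *Onecut2* changed most on the log2 scale. *Onecut2*, a homeodomain transcription factor of neuronal development, held 2.21, 1.28, 1.79, and 1.67 CPM in WT and 7.85, 6.36, 7.68, and 7.77 CPM in 154Q-AXH cortex, a 4.31-fold rise (log2 fold change 2.11 ± 0.23 (SE), adjusted p = 6.83e-05). *Cgref1*, a calcium-binding growth regulator, was at 15.05, 14.04, 14.5, and 14.7 CPM in WT and 24.7, 24.9, 22.1, and 24.7 CPM in 154Q-AXH (log2 fold change 0.73 ± 0.07 (SE), adjusted p = 1.46e-05). The neutral amino acid transporter *Slc6a15* was at 52.1, 57.1, 64.7, and 63.6 and 96.7, 88.2, 87.2, and 89.8 CPM (log2 fold change 0.61 ± 0.07 (SE), adjusted p = 7.63e-05). The remaining raised genes of the set had log2 fold changes from 0.43 (*Gpr85*, an orphan receptor of the brain) to 0.70 (*Pafah1b3*, a catalytic subunit of a platelet-activating factor acetylhydrolase). Between them were the mitochondrial aldehyde dehydrogenase *Aldh1b1* (0.64), the protocadherin *Pcdh11x* (0.60), the guanine nucleotide exchange factor *Dock9* (0.46), the proteasome activator subunit *Psme1* (0.49), and *Mturn* (0.45), with adjusted p values from 8.74e-05 to 0.000139. All 20 leading genes were called in each of the 17 other settings that were run.

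**Figure D2:**
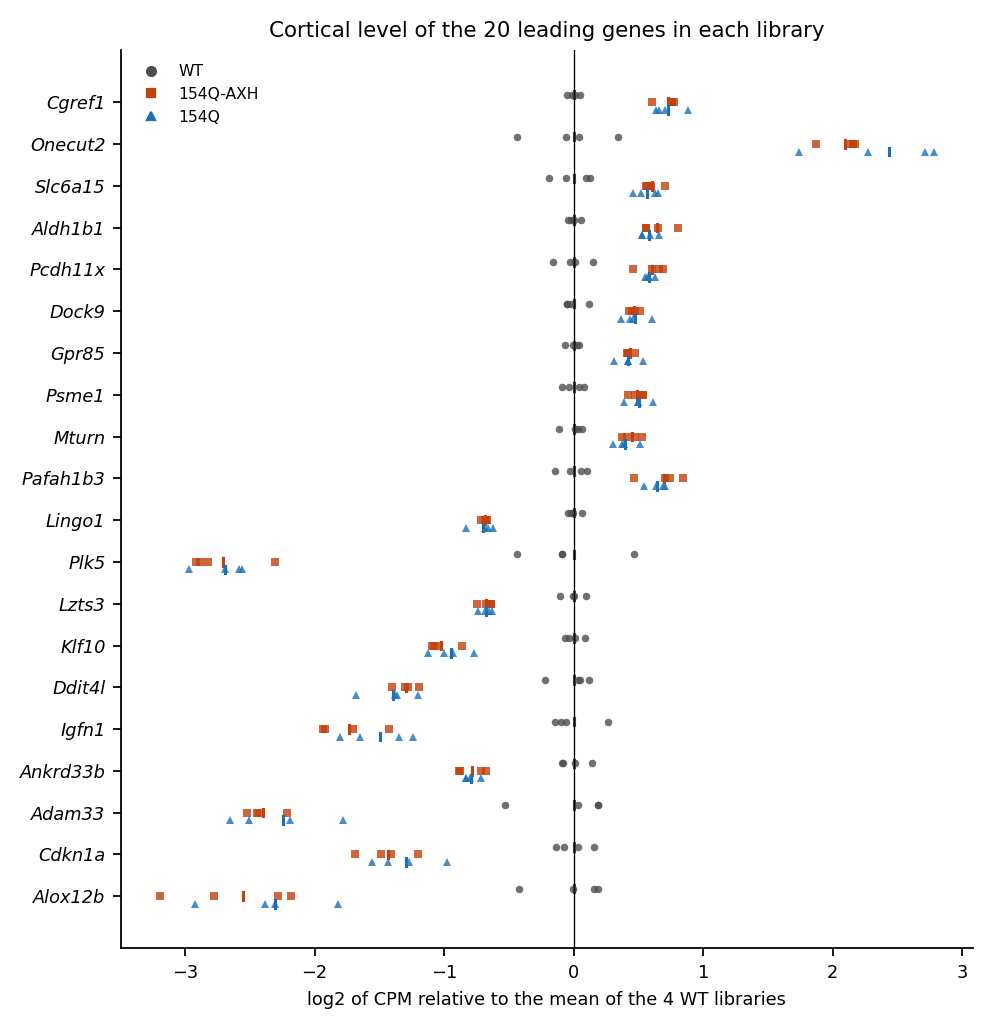
Level of the 20 leading genes in each cortical library as log2 of CPM relative to the mean of the 4 WT libraries (x axis), with WT in gray, 154Q-AXH in orange, 154Q in blue, and a tick at each group mean. The choice of these genes required WT and 154Q-AXH points that do not overlap. The 154Q points lie among or beside the 154Q-AXH points.

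Genes that CIC is known to repress, most of them feedback regulators of MAPK signaling, were in part lower than in WT, and none passed the test as higher. Of 20 such genes, all tested, 5 were lower and 0 higher (25%, beside 4.76% lower over all genes), with a median log2 fold change of -0.11. The phosphatase *Dusp6*, which switches off ERK, held 98.3, 83.7, 104, and 102 CPM in WT and 71.98, 54.3, 66.9, and 64.2 CPM in 154Q-AXH cortex, with no overlap (log2 fold change -0.59 ± 0.08 (SE), adjusted p = 0.000322). Its relatives *Dusp4* (-0.96, adjusted p = 0.00125) and *Dusp5* (-0.79, adjusted p = 0.00217) were also lower. Of the ETS family transcription factors, *Etv5* was lower in 154Q-AXH, with 90.5, 103, 106, and 100.5 CPM against 113, 124, 135, and 118 CPM in WT (log2 fold change -0.29 ± 0.06 (SE), adjusted p = 0.00982), as was *Etv1* (-0.41, adjusted p = 0.0241). *Etv4* was at 9.14, 8.99, 10.6, and 11.1 CPM in WT and 9.77, 9.46, 11.5, and 9.24 CPM in 154Q-AXH cortex (log2 fold change 0.00 ± 0.11 (SE), adjusted p = 0.996). The Sprouty gene *Spry4* (-0.29 ± 0.12, adjusted p = 0.153) and the Sprouty-related *Spred1* (-0.21 ± 0.08, adjusted p = 0.138), inhibitors of the same pathway, did not pass the test, and for both the ranges of the groups overlapped. The count of lowered genes was 4 without WT-221, 4 without 154Q-AXH-207, and 3 without both. *Etv5* was no longer called without both libraries.

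A group of genes that neuronal activity induces was lower in 154Q-AXH cortex. Of 26 such genes, 12 (46.2%, beside 4.76% lower over all genes) were lower and 0 higher. The median log2 fold change was -0.58, against 0.002 over all genes tested. Neuronal activity switches these genes on within minutes to hours through calcium and cAMP signaling, in part through CREB, which binds the cAMP response element. The promoters of 4 of the lowered genes that hold the core of this element are shown because this list had the lowest median of those with a called member. Windows run from 250 bases before to 50 after a transcript start in RefSeq for GRCm38.p6, all on the + strand, and the letters TGACGT, or ACGTCA where the match is on the other strand, are in capitals. They are chr2:109692186-109692485 (1 of several *Bdnf* promoters), chr13:93303507-93303806, chr11:69099902-69100201, and chr10:67537619-67537918.
Bdnf: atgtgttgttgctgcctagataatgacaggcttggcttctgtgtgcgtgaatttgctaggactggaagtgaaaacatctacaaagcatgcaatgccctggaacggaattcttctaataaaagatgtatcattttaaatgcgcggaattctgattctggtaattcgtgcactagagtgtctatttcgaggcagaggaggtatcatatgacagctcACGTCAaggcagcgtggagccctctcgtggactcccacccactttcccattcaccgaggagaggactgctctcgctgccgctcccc
Homer1: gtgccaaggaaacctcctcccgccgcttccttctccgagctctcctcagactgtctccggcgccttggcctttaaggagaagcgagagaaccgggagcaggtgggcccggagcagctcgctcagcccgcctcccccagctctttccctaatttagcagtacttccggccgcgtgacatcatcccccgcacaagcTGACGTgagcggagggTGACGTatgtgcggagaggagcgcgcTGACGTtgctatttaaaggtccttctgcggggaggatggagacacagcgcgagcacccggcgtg
Per1: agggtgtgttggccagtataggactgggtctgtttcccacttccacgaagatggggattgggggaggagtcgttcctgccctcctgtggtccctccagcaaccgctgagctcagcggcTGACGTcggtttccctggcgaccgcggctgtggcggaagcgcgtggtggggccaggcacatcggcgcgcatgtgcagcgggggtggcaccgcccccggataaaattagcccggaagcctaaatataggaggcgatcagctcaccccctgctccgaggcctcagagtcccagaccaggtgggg
Egr2: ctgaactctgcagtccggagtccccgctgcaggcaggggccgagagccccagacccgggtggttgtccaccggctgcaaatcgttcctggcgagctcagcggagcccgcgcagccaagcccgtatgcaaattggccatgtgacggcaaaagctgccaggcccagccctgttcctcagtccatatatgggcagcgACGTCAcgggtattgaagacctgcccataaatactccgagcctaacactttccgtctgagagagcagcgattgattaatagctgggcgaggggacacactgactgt

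The motif TGACGT, searched on both strands, occurred in 11 of the 20 activity-induced genes that matched the promoter table by symbol (55.0%), in 4 of the 7 lowered ones with a promoter there (57.1%), and in 8.37% of all 27025 genes of the table. The share among the lowered ones was thus close to that of their whole list, and a link of the motif to the lowering was not tested. It was in 9.73% of the promoters of all lowered genes and in 12.7% of those of all raised genes, beside 12.1% over the genes tested. Of the octamers that CIC binds, TGAATGAA and TGAATGGA were searched on both strands too, and other forms were not. TGAATGAA, in 1.5% of all genes of the table, was present in *Shc4* and *Spred3* of the 11 genes of the CIC list that matched, and TGAATGGA, in 1.4% of all, in *Shc4*, and neither gene was called. These are matches of letters in a short window and no more.

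*Bdnf*, the neurotrophin released by active neurons, held 41.4, 44.8, 49.1, and 42.2 CPM in WT and 31.7, 28.3, 28.9, and 28.9 CPM in 154Q-AXH cortex (log2 fold change -0.59 ± 0.07 (SE), adjusted p = 7.63e-05). *Homer1*, a postsynaptic scaffold with a short activity-induced form, was at 220.3, 244, 286, and 217.1 CPM in WT and 133, 126, 142, and 167 CPM in 154Q-AXH (log2 fold change -0.77 ± 0.09 (SE), adjusted p = 0.000109). The immediate early gene *Ier5* was at 165, 150.1, 194, and 162 and 114, 103, 111, and 111 CPM (log2 fold change -0.62 ± 0.08 (SE), adjusted p = 0.000145). In all 3, each WT library lay above each 154Q-AXH library, and each call held in every setting. *Per1*, a clock gene that is also induced by cAMP, was lower as well (-0.83, adjusted p = 0.000184).

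The fast transcription factors varied more from mouse to mouse. They, and members of the lists below that are named beyond the 3 smallest p values of each direction, were chosen after their values were seen. *Egr1* was at 419, 481, 519, and 499.6 CPM in WT and 376, 166, 281, and 302 CPM in 154Q-AXH cortex (log2 fold change -0.77 ± 0.20 (SE), adjusted p = 0.027), where 154Q-AXH-207 was the highest of its group and still below every WT library. *Arc*, an immediate early gene that acts at dendrites, was at 345, 264, 479, and 404 and 246, 104, 198, and 153 CPM (log2 fold change -1.09 ± 0.25 (SE), adjusted p = 0.0151), and the groups were apart. For *Fos*, 154Q-AXH-207 was above every WT library (42.8, 52.3, 64.5, and 71.2 CPM in WT, 75.7, 20.9, 35.6, and 40.5 CPM in 154Q-AXH), and the gene did not pass the test (log2 fold change -0.42 ± 0.31, adjusted p = 0.5). Summed over the list, 154Q-AXH-207 held 2241 CPM, against 1297, 1651, and 1705 CPM in the other 154Q-AXH libraries and from 2381 to 3128 CPM in WT. The count of lowered genes was 8 without WT-221, 15 without 154Q-AXH-207, and 13 without both, and 7 without WT-220 or without 154Q-AXH-218.

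**Figure D3:**
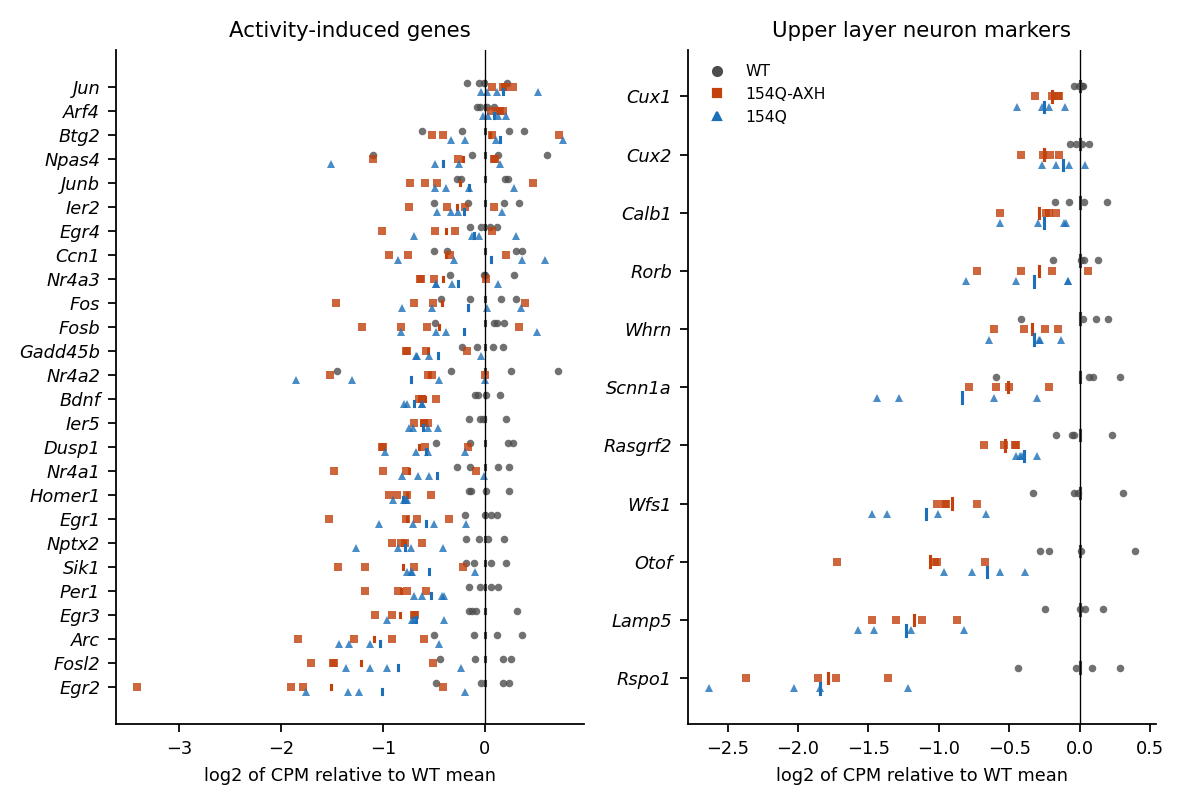
Level of each activity-induced gene (left) and 11 of the 12 upper layer neuron markers (right) in each cortical library, as log2 of CPM relative to the WT mean (x axis), with ticks at group means for WT (gray), 154Q-AXH (orange), and 154Q (blue). The 154Q-AXH means of most activity-induced genes and of the 11 upper layer markers shown lie left of 0, with wide scatter for *Fos*, *Npas4*, and *Nr4a2*. The upper layer marker that is not shown had a log2 fold change of 0.15.

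Markers of upper layer excitatory neurons, which connect cortical areas with each other, were lower in 154Q-AXH cortex. Of 12 tested, 6 were lower and 0 higher (beside 4.76% lower over all genes), with 11 log2 fold changes under 0, 1 at 0.15, and a median log2 fold change of -0.43, and the summed level was 1046 to 1159 CPM in WT and 673 to 762 CPM in 154Q-AXH mice, with no overlap. *Lamp5*, a vesicle protein of upper layer and some inhibitory neurons, held 308, 231, 275, and 282 CPM in WT and 98.8, 111, 149.8, and 126 CPM in 154Q-AXH, 2.26-fold lower (log2 fold change -1.17 ± 0.15 (SE), adjusted p = 0.000192). *Rspo1*, a secreted enhancer of Wnt signaling, fell from 16.6, 12.4, 17.9, and 20.6 CPM in WT to 3.27, 5.09, 6.55, and 4.65 CPM (log2 fold change -1.79 ± 0.23 (SE), adjusted p = 0.000223). The Ras exchange factor *Rasgrf2*, at 234, 178, 192, and 195 CPM in WT, was at 145, 124, 137, and 146 CPM in 154Q-AXH (log2 fold change -0.53 ± 0.07 (SE), adjusted p = 0.000492). In these 3 genes the groups did not overlap. *Wfs1* (-0.91, adjusted p = 0.00198), *Otof* (-1.06, adjusted p = 0.00285), and *Cux2*, a transcription factor of upper layers, (-0.25, adjusted p = 0.0325) were also lower. The count was 5 without WT-221, 6 without 154Q-AXH-207, and 5 without both. These genes are not confined to cortex: as CPM on unadjusted library totals, their sum was 1811 to 1947 in the cerebellum of WT and 1608 to 1700.5 in that of 154Q-AXH mice, beside 1038 to 1118 and 674 to 763 in cortex.

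Deep layer markers belong to neurons that project out of the cortex: 3 of 16 (18.8%, beside 4.76% lower over all genes) were lower and 0 higher, with a median log2 fold change of -0.08. The summed levels of the groups overlapped (615 to 724 CPM in WT and 602 to 691 CPM in 154Q-AXH). The difference between the lists was not tested. The deep layer list is not confined to cortex either. On unadjusted library totals, its WT sum was 593 to 723 CPM in cortex and 727 to 901 CPM in striatum. In WT hippocampus it was 741 to 836 CPM. In 154Q-AXH mice these sums were 594 to 692, 587 to 768, and 730 to 803 CPM. *Parm1* (-0.46, adjusted p = 0.00981), *Ccn2*, a marker of the deepest layer, (-0.75, adjusted p = 0.0101), and *Fezf2*, which specifies corticospinal neurons, (-0.38, adjusted p = 0.0273) were the lowered genes, and the count was 2 without WT-221, 2 without 154Q-AXH-207, and 0 without both. *Fezf2* lost its call in 9 of the 17 other settings, among them without 154Q-AXH-207 and without WT-221. *Bcl11b* (-0.07) and *Tbr1* (-0.08) did not pass.

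Genes of interneurons, the inhibitory cells of the cortex, were lower too: of 25 tested, 10 (40.0%, beside 4.76% lower over all genes) were lower and 0 higher, with a median of -0.28 and summed levels of 1496 to 1602 CPM in WT and 1209 to 1262 CPM in 154Q-AXH cortex. *Gad1*, the enzyme that makes GABA, held 377, 363, 406, and 375 CPM in WT and 277, 278, 292, and 283 CPM in 154Q-AXH (log2 fold change -0.43 ± 0.05 (SE), adjusted p = 8.81e-05), and the groups were apart. An antisense gene, *Gad1os*, overlaps it, and counting without strand cannot separate the 2. *Vip*, a peptide of interneurons that inhibit other interneurons, was at 52.9, 48.8, 55, and 48.9 and 27.3, 29.9, 30.1, and 30.5 CPM (log2 fold change -0.80 ± 0.09 (SE), adjusted p = 0.000106). *Sst*, the peptide of dendrite-targeting interneurons, was at 188, 193, 200.2, and 209.6 and 151, 166, 140.5, and 146 CPM (log2 fold change -0.39 ± 0.07 (SE), adjusted p = 0.00184). Both peptides were lower in every 154Q-AXH library than in any WT library. The peptide genes *Crh* (-0.87), *Penk* (-0.96), *Cort* (-0.76), and *Npy* (-0.51) were lower too, as were *Reln*, *Adarb2*, and *Crhbp*. The count was 10 without WT-221, 10 without 154Q-AXH-207, and 7 without both. On unadjusted library totals, the list's WT sum was 1494 to 1567 CPM in cortex and 2527 to 2669 CPM in cerebellum. In 154Q-AXH mice it was 1221 to 1264 CPM and 2609 to 2764.5 CPM.

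Markers of other cells of the tissue were counted in the same way. Of 20 astrocyte markers, 3 (15.0%, beside 4.76% lower over all genes) were lower and 0 higher (median -0.19), led by the glycolytic enzyme *Aldoc* (-0.21, adjusted p = 0.0104), the connexin *Gjb6* (-0.26, adjusted p = 0.0232), and the glutamate transporter *Slc1a2* (-0.22, adjusted p = 0.0396). The count was 2 without WT-221, 3 without 154Q-AXH-207, and 2 without both, 1 without WT-70, without WT-220, or without 154Q-AXH-218, and 8 with the labels of 154Q-AXH-207 and 154Q-76 exchanged. The summed astrocyte level was 8354 to 8729 CPM in WT and 7087 to 7697 CPM in 154Q-AXH, without overlap, and its part in the results of the other lists was not tested. Of 19 microglia markers 1 (5.26%, beside 2.39% higher over all genes) was higher, the purinergic receptor *P2ry13* (0.34, adjusted p = 0.0144), a call lost without 154Q-AXH-209. The 22 genes of oligodendrocytes and myelin held summed levels of 6966 to 8616 CPM in WT and 6820.1 to 8742 CPM in 154Q-AXH, and edgeR and DESeq2 called 0 of them, with 1 at an unadjusted p under 0.05. The same held for the 13 vascular markers tested (0 by either tool, 1 unadjusted). For 12 choroid plexus, 10 meningeal, 9 thalamic, and 8 cerebellar markers tested, both tools called 0, with 0, 2, 0, and 2 at an unadjusted p under 0.05. The median of the choroid plexus markers was -0.88, which moved to -0.26 without WT-221 and 154Q-AXH-207, and their part in the results above was not tested. Of 13 striatal neuron markers tested (23.1% called, beside 7.15% over all genes), *Ppp1r1b*, the dopamine-regulated inhibitor DARPP-32 that deep cortical layers also make, was lower (-0.82, adjusted p = 0.00981), *Ido1* was lower (-1.54, adjusted p = 0.0468), and *Gprin3* higher (0.47, adjusted p = 0.0312). Of 14 hippocampal markers, 1 (7.14%, beside 2.39% higher over all genes) was higher, *Tdo2* (0.98, adjusted p = 0.03). Of the 17 other settings, *Ido1* lost its call in 11, *Gprin3* in 6, and *Tdo2* in 8.

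Among the lists with lowered genes and 0 called higher by edgeR, from 0 to 3 members of a list were higher at an unadjusted p under 0.05, and DESeq2 called 1 potassium channel gene and 2 synaptic vesicle genes higher and none in the others. Of the microglia markers, edgeR called 0 lower, DESeq2 called 2, and 2 were lower at an unadjusted p under 0.05.

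**Figure D4:**
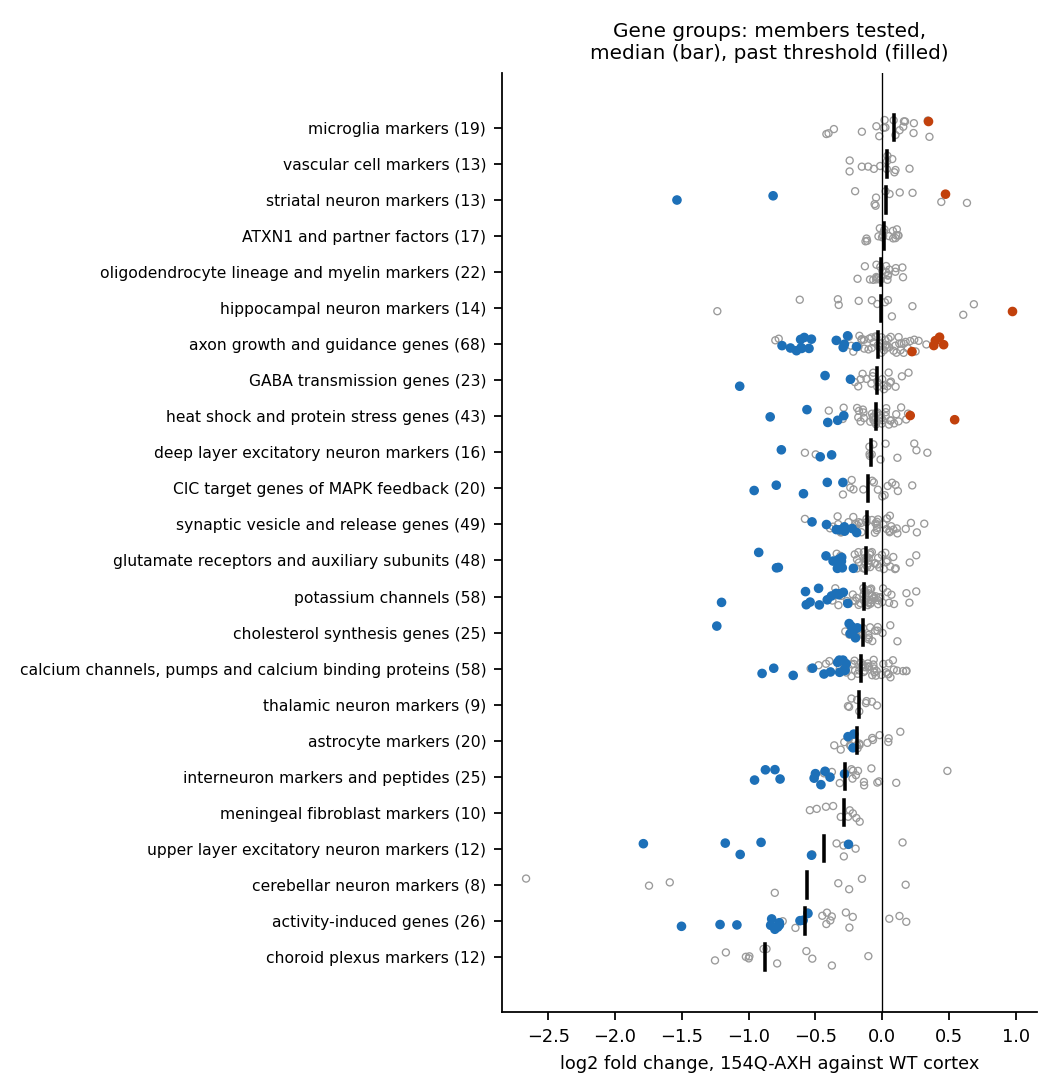
Log2 fold change in 154Q-AXH against WT cortex (x axis) for the tested members of 24 gene lists, ordered by median (black bar), with the number tested in brackets, members past the threshold filled in orange (higher) or blue (lower), and others open. Filled blue points crowd the activity-induced, upper layer, and interneuron rows, and the choroid plexus row has the lowest median and no filled point.

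Several genes for proteins that receive and shape synaptic signals were lower. Of 48 genes for glutamate receptors, auxiliary subunits, and scaffolds, 11 (22.9%, beside 4.76% lower over all genes) were lower and 0 higher (median -0.12). *Gsg1l*, an auxiliary subunit that slows AMPA receptors, held 115, 107, 93.3, and 105 CPM in WT and 48.8, 62.1, 55.2, and 55.3 CPM in 154Q-AXH cortex (log2 fold change -0.92 ± 0.08 (SE), adjusted p = 1.26e-05). The presynaptic metabotropic receptors *Grm4*, at 29.8, 36.5, 34.7, and 32.5 CPM in WT and 18.5, 20.4, 18.6, and 19.7 CPM in 154Q-AXH (log2 fold change -0.79 ± 0.07 (SE), adjusted p = 1.51e-05), and *Grm2* (-0.78, adjusted p = 0.000125) were lower as well. For *Gsg1l* and *Grm4*, no 154Q-AXH library reached the lowest WT library. Subunits of the fast receptors had smaller differences, with *Grin2a* at -0.42, *Gria3* at -0.34, and *Gria4* at -0.30. The count was 9 without WT-221, 9 without 154Q-AXH-207, and 9 without both.

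On the inhibitory side, 3 of 23 genes of GABA transmission were lower and 0 higher (beside 4.76% lower over all genes), with a median log2 fold change of -0.04. *Gabrd*, the delta subunit of extrasynaptic GABA-A receptors, which carry tonic inhibition, was at 86.6, 71.7, 69.7, and 78.1 CPM in WT and 30.3, 33.3, 44.9, and 37.4 CPM in 154Q-AXH cortex, 2.09-fold lower with no overlap (log2 fold change -1.07 ± 0.11 (SE), adjusted p = 5.72e-05). *Gad1*, which is also counted in the interneuron list, was lower as well, as given above. The count was 3 without WT-221, 2 without 154Q-AXH-207, and 2 without both. Among 49 genes of synaptic vesicles and release, 8 (16.3%, beside the same 4.76%) were lower and 0 higher (median -0.12), led by *Syt12* (-0.53, adjusted p = 0.00254), the calcium sensor *Syt7* (-0.28, adjusted p = 0.00439), and the active zone scaffold *Bsn* (-0.34, adjusted p = 0.0083). That count was 8 without WT-221, 6 without 154Q-AXH-207, and 2 without both, 5 without 154Q-AXH-209, and 14 without 154Q-AXH-217.

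Some genes of ion channels and calcium handling were lower too, and most members of these lists did not pass the test. Of 58 potassium channel genes, 13 (22.4%, beside 4.76% lower over all genes) were lower and 0 higher (median -0.13). *Kcnc1*, which encodes the Kv3.1 channel of fast-spiking cells, held 281, 245, 253, and 269 CPM in WT and 176, 185, 216, and 180.1 CPM in 154Q-AXH (log2 fold change -0.47 ± 0.07 (SE), adjusted p = 0.000437). The calcium-activated channel *Kcnma1* (-0.32, adjusted p = 0.00101) and the forebrain channel *Kcnh3* (-0.57, adjusted p = 0.00129) were next. The potassium channel count was 7 without WT-221, 8 without 154Q-AXH-207, and 6 without both, 8 without WT-70 or without 154Q-AXH-218, and 7 without 154Q-AXH-209. Of 58 genes for calcium channels, pumps, and binding proteins, 13 (22.4%, beside the same 4.76%) were lower and 0 higher (median -0.16). *Itpka*, a kinase of dendritic spines that phosphorylates the second messenger IP3, was at 282, 197, 243, and 236 CPM in WT and 123, 144, 135, and 144 CPM in 154Q-AXH (log2 fold change -0.81 ± 0.09 (SE), adjusted p = 9.34e-05). The kinases *Camkk2* (-0.67, adjusted p = 0.00108) and *Camk2a*, which is abundant in excitatory neurons, (-0.52, adjusted p = 0.00422) followed. The calcium list's count was 11 without WT-221, 10 without 154Q-AXH-207, and 4 without both.

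Genes of axon growth and guidance moved both ways. Of 68 tested, 14 were lower and 5 higher (27.9% in all, beside 7.15% over all genes, median -0.03). Besides *Lingo1*, *Nrn1*, an activity-regulated promoter of neurite growth, held 163, 140.2, 135, and 153 CPM in WT and 96.6, 91.2, 101, and 90.3 CPM in 154Q-AXH cortex (log2 fold change -0.64 ± 0.07 (SE), adjusted p = 8.74e-05), and *Fars2* overlaps it. *Rtn4r*, the Nogo receptor, with which LINGO1 acts, was at 117, 91.8, 106, and 99.7 and 62.7, 65.1, 71.99, and 71.5 CPM (log2 fold change -0.61 ± 0.07 (SE), adjusted p = 9.39e-05). Neither gene's groups overlapped. Of the higher genes, *Stmn2*, a regulator of microtubules in growing axons, was at 364, 376, 361, and 351 CPM in WT and 469, 472, 501, and 456 CPM in 154Q-AXH (log2 fold change 0.39 ± 0.06 (SE), adjusted p = 0.000898). *Marcks*, an actin-binding kinase substrate, (0.46, adjusted p = 0.00102) and the guidance ligand *Slit1* (0.43, adjusted p = 0.0075) were higher too. The lowered count was 11 without WT-221, 9 without 154Q-AXH-207, and 7 without both. The higher count was 4 without WT-221, 3 without 154Q-AXH-207, and 2 without both, and 3 without WT-70, without 154Q-AXH-209, or without 154Q-AXH-217.

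For cholesterol synthesis, 7 of 25 genes (28.0%, beside 4.76% lower over all genes) were lower and 0 higher (median -0.14). The enzymes *Cyp51* (-0.21, adjusted p = 0.00447) and *Fdft1* (-0.23, adjusted p = 0.0138) were among the lowered genes. The count was 6 without WT-221, 4 without 154Q-AXH-207, and 1 without both, 4 without WT-77 or without 154Q-AXH-218, and 3 without 154Q-AXH-209. Of 43 heat shock and protein stress genes, 5 were lower and 2 higher (16.3% in all, beside 7.15% over all genes, median -0.05). The lowered count was 4 without WT-221, 5 without 154Q-AXH-207, and 2 without both, and the higher count was 1 in each of these fits. The small cochaperone *Bag2* was higher, at 8.35, 7.11, 7.82, and 7.41 CPM in WT and 12.2, 10.3, 10.99, and 11.2 CPM in 154Q-AXH (log2 fold change 0.54 ± 0.09 (SE), adjusted p = 0.00111), as was *Hsp90ab1* (0.21, adjusted p = 0.0304), a call lost in 9 of the 17 other settings, among them without 154Q-AXH-207. *Dnajb5* (-0.56, adjusted p = 0.00101) and the stress response factors *Atf4* (-0.29, adjusted p = 0.00562) and *Atf6* (-0.41, adjusted p = 0.0104) were lower. *Hspa1b* was lower too, but it shares nearly all of its sequence with *Hspa1a*, and its count is uncertain.

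No gene separated the 154Q-AXH from the 154Q cortex past the threshold. EdgeR and DESeq2 each called 0 of 18610 genes (0%), 1241 had an unadjusted p under 0.05, and the lowest adjusted p was 0.744. *Ighm*, an immunoglobulin gene, was called when the labels of 154Q-AXH-207 and 154Q-76 were exchanged, and in no other setting run was any gene called. For the 20 leading genes the difference between the mutants ranged from -0.33 (*Onecut2*) to 0.10 (*Ddit4l*) on the log2 scale, with standard errors from 0.05 to 0.29 and no unadjusted p under 0.05. A p over the threshold does not show that the genotypes have the same levels. *Lingo1*, for example, held, from 154Q-69 to 154Q-76, 306, 311, 277, and 320.1 CPM in 154Q cortex, and its difference, 154Q-AXH minus 154Q, was 0.01 ± 0.05. *Plk5* held 2.89, 2.64, 2.85, and 2.18 CPM there, with a difference of -0.01 ± 0.24. *Onecut2* held 11.97, 11.4, 8.395, and 5.81 CPM, with a difference of -0.33 ± 0.18. *Bdnf* was at 29, 26.1, 25.6, and 29 CPM, with a difference of 0.11 ± 0.07, and *Dusp6* at 64.2, 69.5, 65.4, and 65.5 CPM, with a difference of -0.04 ± 0.08. In each of these genes the 154Q libraries overlapped the 154Q-AXH libraries.

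Of the 10 genes with the smallest p values between the mutants, *Aox1* was also called against WT in 154Q-AXH cortex (-0.37 ± 0.11, adjusted p = 0.0486) and the others were not. *Ednrb*, an endothelin receptor of astrocytes, held 50.1, 53.4, 53.1, and 50.96 CPM in WT, 55.3, 50.9, 53.2, and 49.5 CPM in 154Q-AXH, and 46.6, 41.4, 39.4, and 45.3 CPM in 154Q cortex (154Q-AXH minus 154Q 0.27 ± 0.06, unadjusted p = 0.000255). *Bcas1*, a gene of oligodendrocytes that start to myelinate, was at 124, 132, 149.9, and 142, 139, 145, 124, and 151, and 99.3, 113, 98.2, and 126 CPM (0.36 ± 0.08, unadjusted p = 0.000684). The other genes with small unadjusted p values were *Rhog*, *Gpr37*, and *B3galt5* (higher in 154Q-AXH) and *Iqgap1*, *Aox1*, *Cpxm2*, *Dido1*, and *Reep4* (lower), with differences from -0.53 ± 0.13 to 0.43 ± 0.10. All 10 had an adjusted p of at least 0.744.

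The effect in cortex was set against that in the other forebrain regions of the same mice by testing the difference of the differences. Against striatum, edgeR and DESeq2 called 0 of 18743 genes (0%), with 359 at an unadjusted p under 0.05 and a lowest adjusted p of 1.0. This comparison was imprecise, with a median standard error of 0.188 on the log2 scale over the genes called in cortex, and the striatal libraries differed among themselves in summed striatal neuron markers (1931 to 6048 CPM in WT and 680.2 to 3981 CPM in 154Q-AXH). Upper layer markers summed to 702 to 983 CPM in WT and 705 to 847 CPM in 154Q-AXH striatum. That 0 genes were called does not show the same effect in both regions. The genes with the smallest unadjusted p were *Cnr1*, *Ddit4l*, and *Inpp5j* (log2 fold change higher in cortex) and *Anpep*, *Npy5r*, and *Eya1* (lower in cortex). *Ddit4l* was at -1.92 in striatum and -1.29 in cortex, and *Cnr1*, the cannabinoid receptor, at -0.92 and -0.19.

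Against hippocampus, 4 of 20597 genes (0.0194%) differed, and all 4 were lower than WT in the cortex but not in the hippocampus of 154Q-AXH mice. The count was 3 without the cortex library WT-221 and 6 without the cortex library 154Q-AXH-207. *Nectin1*, a cell adhesion protein of synapses, was, as CPM on unadjusted library totals, at 29.5, 30.6, 34.1, and 28.2 CPM in WT and 23.3, 20.97, 22.3, and 23.7 CPM in 154Q-AXH cortex, and at 46.7, 50.8, 51.1, and 50.1 CPM and 59.3, 55.3, 64.6, and 66.6 CPM in hippocampus, in the same order (difference -0.75 ± 0.10, adjusted p = 0.00982). Each region's groups were apart, in opposite directions, and the rise in hippocampus passed the test (log2 fold change 0.28, adjusted p = 0.0215).

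*Ntn5*, a member of the netrin family of guidance proteins, was at 4.77, 9.81, 7.15, and 7.65 CPM in WT and 2.505, 2.87, 2.102, and 2.45 CPM in 154Q-AXH cortex, and at 3.52, 3.08, 3.74, and 3.26 CPM and 4.501, 3.28, 5.54, and 4.62 CPM in hippocampus, where the groups overlapped (difference -1.98 ± 0.27, adjusted p = 0.00982). *Ntn5* overlaps the gene *Sec1*. *Rnf39*, named after its values were seen, was at 12.7, 15.2, 16.3, and 13.5 CPM and 9.03, 8.14, 8.02, and 7.92 CPM in cortex and had a difference of -1.10 ± 0.17 (adjusted p = 0.0384). With the mouse number as a replicate block, which pairs the 2 regions by the labelled mouse, the cortex library WT-221 included, 4 genes were called again, 2 of them, *Nectin1* included, shared with the fit without the block, and adjusted p was 0.0665 for *Ntn5* and 0.126 for *Rnf39*. None of the 4 was called without mouse WT-77 or without mouse 154Q-AXH-217, *Nectin1*, *Ntn5*, and *Rnf39* were not called without mouse WT-220 either, and DESeq2 called 124 genes, these 4 among them. On the higher side, *Dnah14*, *Rem2*, and *Rgs14* had the smallest p values and did not pass (adjusted p = 0.056, 0.056, and 0.0611). *Bdnf*, lower in cortex, was at -0.08 ± 0.07 in hippocampus, and the difference between the regions missed the threshold (adjusted p = 0.0742).

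**Figure D5:**
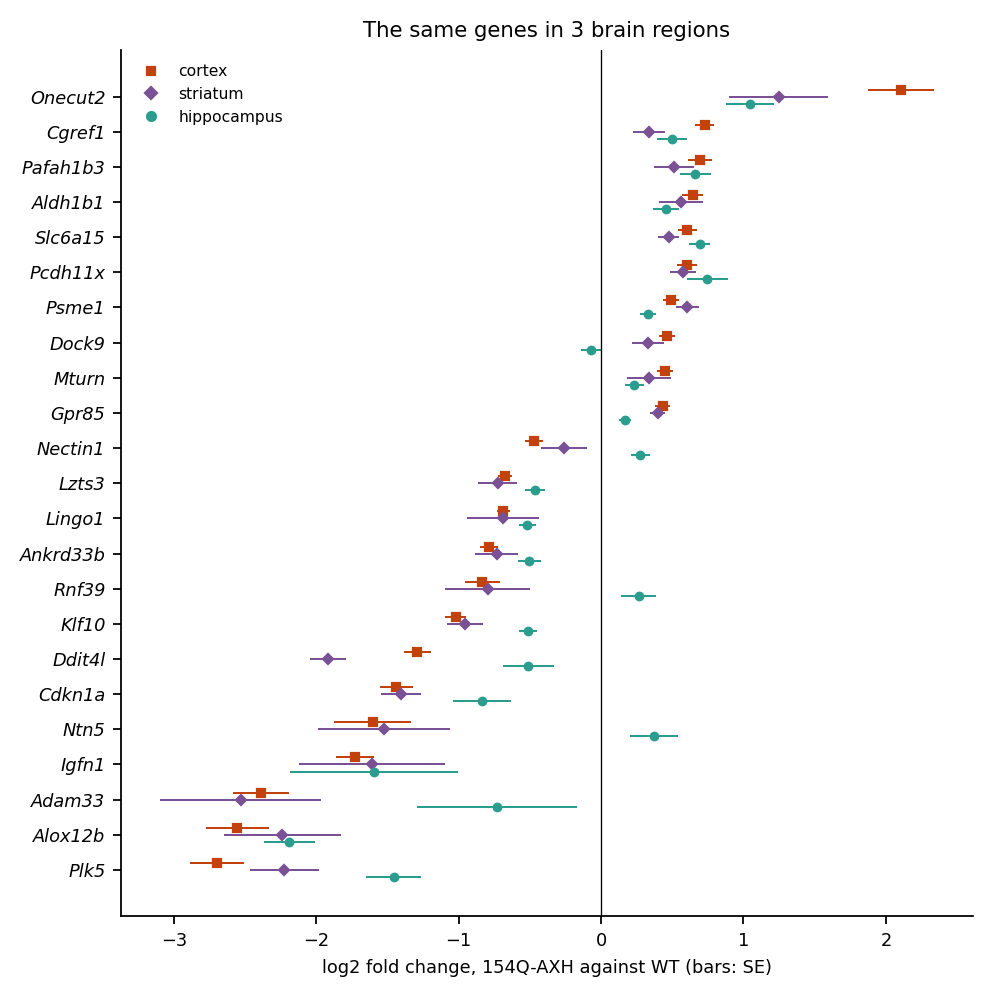
Log2 fold change in 154Q-AXH against WT mice (x axis, bars show the SE) in cortex, striatum, and hippocampus, for the 20 leading cortical genes and 3 of the genes whose effect differed between cortex and hippocampus. *Ntn5*, *Nectin1*, and *Rnf39* are left of 0 in cortex and striatum and right of 0 in hippocampus.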

How the data were processed

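PolyA RNA of each region was sequenced as read pairs. Per the labels and the study's methods, the authors used Trimmomatic 0.36 on the reads and STAR 2.7.2d for alignment to GRCm38.p6 with GENCODE M18, and deposited STAR's counts of uniquely mapped pairs per gene. The unstranded counts were used here. They do not separate overlapping or antisense genes, and another annotated gene overlaps 41 of the 102 genes that the rule below names, among them *Gad1*, *Kcnh3*, *Nrn1*, *Psme1*, *Pcdh11x*, *Cyp51*, *Fdft1*, *P2ry13*, and *Ntn5*.

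Genes were filtered with filterByExpr and tested in R 4.3.3 with edgeR 4.0.16 (TMM scaling, quasi-likelihood test, Benjamini-Hochberg adjustment), in 1 fit over the 12 cortical libraries of the 3 genotypes. The effect in cortex was compared with striatum or hippocampus as an interaction over 16 libraries of WT and 154Q-AXH mice. The SE is the absolute log2 fold change over the root of the test's F statistic. CPM used TMM-scaled library sizes except where unadjusted totals are named. The code was tested on simulated data.

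Genes were named by rule: the 10 smallest p values in each direction among called genes with a gene name, groups apart, and at least 1 CPM, 5 in each direction against 154Q, 3 in each direction of each list and regional difference, and fixed partners and CIC targets. Others were chosen after their values were seen, and some genes that the rule names are not reported here. The members and lists were chosen with earlier results of these data known. The labels name 1 mouse per library, and same-numbered libraries of 2 regions are labelled as the same mouse, against which the cortex library WT-221 goes. Their deviations from group means correlated with r from -0.17 to 0.18 (cortex and striatum) and -0.16 to 0.20 (cortex and hippocampus). The alternatives were DESeq2 1.42.0, its size factors, no filter, the 2 genotypes alone, *Xist* as a covariate, the mouse number as a block, WT-220 and WT-221 as the sole WT libraries, exchanged or omitted libraries, and each library left out. WT-220 and WT-221 are the WT mice numbered near the 154Q-AXH mice, and that setting includes WT-221, which goes against its label.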

Additional observations from a re-analysis of the deposited data

Results flagged for a closer look

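For 9 of 204 groups of 4 libraries checked among the named genes, 1 library stood apart from the other 3 by Dixon's criterion, and chance alone gives about 1 in 20. Among 154Q-AXH libraries, the highest value stood apart for *Bdnf* (31.7 CPM in 154Q-AXH-207, against 28.3 to 28.9), *Ccn2* (15.4 CPM in 154Q-AXH-209, against 11.6 to 12.2), *Fezf2* (49.4 CPM in 154Q-AXH-209, against 38.4 to 39.5), *Gpr85* (50.9 CPM in 154Q-AXH-218, against 48.8 to 49.1), *Klf10* (28.1 CPM in 154Q-AXH-217, against 24.0 to 24.6), and *Plk5* (3.46 CPM in 154Q-AXH-218, against 2.26 to 2.41). The lowest value stood apart for *Cgref1* (22.1 CPM in 154Q-AXH-217, against 24.7 to 24.9) and *Onecut2* (6.36 CPM in 154Q-AXH-209, against 7.68 to 7.85). In WT the highest value stood apart for *Dock9* (143 CPM in WT-70, against 127 to 130.0). Of these genes, *Fezf2* had groups that overlapped.

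The log2 fold change of 154Q-AXH against WT differed between cortex and hippocampus in edgeR's test of the difference for *Ntn5* (-1.98), *Rnf39* (-1.10), and *Nectin1* (-0.75), each more negative in cortex. These 3 differences were not called when mouse WT-77 or mouse 154Q-AXH-217 was left out.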

How the results depend on the processing

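The direction of all 78 named genes called against WT was the same in all 17 other settings, and 57 of them were called in every one. The settings reuse the same libraries, so a kept direction is no independent support. The number of called genes differed with the libraries that were left out, and the cause was not tested. It was 800 (216 higher and 584 lower) without 154Q-AXH-207 and 154Q-76, 504 (115 and 389) without WT-221 and 154Q-AXH-207, and 642 (157 and 485) with WT-220 and WT-221 as the only WT libraries, all fits with fewer samples. With 1 library left out at a time, 826 to 1194 genes were called, 225 to 358 of them higher and 601 to 836 lower. The higher count fell from 444 to 294 without WT-220, 244 without WT-221, 225 without 154Q-AXH-207, and 283 without 154Q-AXH-209. DESeq2 called 678 genes higher, of 1790.0 in all, and more members of the lists of potassium channels (20, beside 13), synaptic vesicle genes (19, beside 8), astrocyte markers (9, beside 3), and microglia markers (5, beside 1).

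Against 154Q, 1 gene was called with the labels of 154Q-AXH-207 and 154Q-76 exchanged and 0 in the other settings. The difference between cortex and striatum gave 0 in each setting, the replicate block included. For cortex minus hippocampus, DESeq2 called 124 genes and the fit without a filter on low counts 22. With 1 mouse left out, the count ranged from 0 (without WT-77 or without 154Q-AXH-217) to 38 (without WT-70), and it was 10 without 154Q-AXH-207. The fit with the mouse as a replicate block called 4, and 2 of these were shared with the fit without it. The cause of these differences was not tested.

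The 4 libraries per genotype limit the precision, and low genes such as *Adam33* and *Alox12b* rest on few reads. Over the genes called in cortex, the median standard error of the difference between regions was 0.188 for striatum and 0.134 for hippocampus.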

Other observations

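Genes of the muscle sarcomere were among the lowered transcripts. They were gathered after *Igfn1* and other members had been seen, by family names, so their counts are a description with no test. Of 53 tested members of the myosin, troponin, titin, and related families, 16 (30.2%, beside 4.76% over all genes) were lower and 2 (beside 2.39%) higher in 154Q-AXH cortex, with a median log2 fold change of -0.19. The lowered count was 13 without WT-221, 12 without 154Q-AXH-207, and 12 without both, and the higher count 1, 2, and 0. The cardiac myosin-binding protein *Mybpc3* was at 2.04, 1.69, 1.04, and 1.87 CPM in WT and 0.233, 0.492, 0.132, and 0.449 CPM in 154Q-AXH cortex (log2 fold change -2.33 ± 0.31, adjusted p = 0.000322). The slow myosin heavy chain *Myh7* was at 3.72, 3.47, 3.71, and 3.44 and 0.907, 0.752, 0.763, and 1.03 CPM (-2.05 ± 0.18, adjusted p = 1.26e-05), and the cardiac and slow troponin *Tnnc1* at 11.5, 7.14, 5.54, and 8.31 and 1.58, 2.89, 2.05, and 1.796 CPM (-1.96 ± 0.28, adjusted p = 0.00057). In all 3 genes the levels were low. The lowered genes included the nonmuscle actinin *Actn4* (-0.19), and the higher genes were the nonsarcomeric light chain *Myl6* (0.20) and the light chain *Myl6b* (0.35).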
